A study of Mus musculus with 7 samples.

Results

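The mitochondrial ribosome is built from proteins encoded in the nucleus, and the genes of those proteins are named Mrpl for the large subunit and Mrps for the small one. The members described here are the 78 protein-coding genes of the deposited count table whose symbols begin with Mrpl or Mrps followed by a digit, out of 54532 genes in all and 22046 protein-coding genes. By their names 49 belong to the large subunit and 29 to the small subunit, and they lie on 17 chromosomes. RNA of mouse retina, the light-sensing layer of the eye, was sequenced on day 28 from 4 libraries of animals infused with Ang II (angiotensin II, a peptide hormone that raises blood pressure) and from 3 libraries of animals infused with saline. The series text gives all animals as ApoE-/-, lacking apolipoprotein E, whereas the sample labels give every library the genotype WT. Strain, age and the number of animals behind each library are not given in the sources used here. The p-values below therefore measure the spread between these libraries, which may be technical.

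In textbook terms, this ribosome translates the few mRNAs of the mitochondrial genome, all of which encode subunits of the respiratory chain and ATP synthase. Its small subunit binds and decodes the mRNA, and its large subunit forms the peptide bond and passes the new chain to the inner membrane. Many of its proteins descend from bacterial ribosomal proteins, and others were added in the mitochondrial lineage. Photoreceptors, the most numerous cells of the mouse retina, pack mitochondria into their inner segments.

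The tissue label was checked first. The 15 retina marker genes of the list used were all detected well enough to be tested, and they summed to between 42720 and 51540 CPM (counts per 1000000 of the library size, scaled by the TMM method) in Ang II libraries and between 50730 and 55610 CPM in saline libraries. Apoe had 291, 253, 406 and 373 counts in the Ang II libraries and 304, 150 and 273 counts in the saline libraries. The counts do not settle the genotype. Total counts per library ran from 15374638 to 17563493 in Ang II and from 14655431 to 16679829 in saline. Markers of pigment epithelium (a cell sheet that lines the retina from outside) and melanocytes summed to between 1090 and 1912 CPM in Ang II. In saline they summed to 195.8, 230 and 985.2 CPM in replicates 1 to 3, and 12 of 13 genes were higher in Ang II. Skeletal muscle markers summed to 219.8 CPM in Ang II replicate 3 but to 3.61 to 11.9 CPM in the other 3 Ang II libraries, against 4.07 to 16.2 CPM in saline. Lens markers summed to 325 CPM in Ang II replicate 2 and 45.3 CPM in Ang II replicate 3 but to 2.44 and 0.784 CPM in Ang II replicates 1 and 4, against 1.75 to 16.9 CPM in saline. The part of these other tissues in the results below was not tested.

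Promoters are shown because their sequence is a property of the members that the naming rule did not use. RefSeq promoter windows of 250 bases before to 50 bases after the gene start on GRCm38.p6 were found for 69 of the 78 members, and 3 sets of letters were searched on both strands. They were CCGGAAG, a core bound by ETS factors such as GABP (known as NRF2 in respiratory gene regulation), AAGATGG, a core bound by YY1, and GCGCATGCG, a core bound by NRF1. The NRF1 letters can overlap their own reverse complement, and the other motifs were counted without regard to overlap. In the sequences below the stretches in capitals match 1 of these motifs on either strand, and all other bases are in lower case. Each runs 5′ to 3′ on the strand of the gene and covers 150 bases or reaches back to the start of the partner gene. Each ends at the base before the RefSeq start. For Mrpl9 the RefSeq start differs from that of the count table, so its last 18 letters lie inside the gene as deposited. Mrpl43 is shown because it shares its short upstream stretch with Twnk, the mitochondrial DNA helicase. Mrps27 shares one with Ptcd2. Mrpl58 and Mrpl52 carry ETS cores close to the start, Mrpl52 with a YY1 core. Mrpl9 is 1 of 7 members with the NRF1 letters. Mrpl45, the member of smallest p, holds none of the 3 sets of letters as searched. Its line does hold gcgcacgcg, which has c in place of t in the NRF1 letters, and that form was not searched.
Mrpl43, chr19:45006443-45006557, minus strand: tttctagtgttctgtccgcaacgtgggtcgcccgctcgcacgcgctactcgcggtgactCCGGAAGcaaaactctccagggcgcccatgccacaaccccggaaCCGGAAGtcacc
Mrps27, chr13:99344706-99344785, plus strand: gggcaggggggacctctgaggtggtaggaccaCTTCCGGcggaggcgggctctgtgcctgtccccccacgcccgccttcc
Mrpl58, chr11:115403602-115403751, plus strand: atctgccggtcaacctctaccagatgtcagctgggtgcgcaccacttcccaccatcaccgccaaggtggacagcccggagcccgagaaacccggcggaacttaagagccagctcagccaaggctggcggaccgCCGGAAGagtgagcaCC
Mrpl52, chr14:54426759-54426908, plus strand: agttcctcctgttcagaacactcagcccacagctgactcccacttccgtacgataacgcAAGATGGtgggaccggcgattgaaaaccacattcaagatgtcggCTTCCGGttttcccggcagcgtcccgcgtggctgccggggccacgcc
Mrpl9, chr3:94443186-94443335, plus strand: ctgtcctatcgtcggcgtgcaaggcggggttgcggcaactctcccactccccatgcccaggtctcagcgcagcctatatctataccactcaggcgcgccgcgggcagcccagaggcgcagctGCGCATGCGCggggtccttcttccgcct
Mrpl45, chr11:97315566-97315715, plus strand: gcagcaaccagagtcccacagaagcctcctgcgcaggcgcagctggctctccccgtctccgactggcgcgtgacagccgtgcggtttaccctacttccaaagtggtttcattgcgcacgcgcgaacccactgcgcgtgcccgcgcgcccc

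In Mrpl43 the ETS cores begin 56 and 12 bases before the start. In Mrpl58 they begin 17 and 2 bases before it, so that the last capitals of its line are the first letters of a core that runs past the start. In Mrpl52 the YY1 core begins 91 bases and an ETS core 47 bases before the start. Over all windows, the ETS letters were found in 24 of 69 members (34.8%), against 16.9% of the 11098 protein-coding genes that were tested for expression and had a window, and 12.3% of the 16506 protein-coding genes with a window. The YY1 letters were found in 13 members (18.8%), against 6.79% and 6.44% of those genes. The NRF1 letters were found in 7 members (10.1%), against 3.48% and 2.5%, and in 3 members (4.35%) they overlapped on both strands, against 1.95% and 1.37%. None of the 3 sets of letters was found in 33 members (47.8%), against 75.2% and 80.4%. By subunit, ETS letters were found in 14 of 43 large and 10 of 26 small members, YY1 letters in 7 and 6, and NRF1 letters in 6 and 1. Base composition was similar, with a median of 58.3% G and C in members and 61.0% in tested genes. A match is a description of letters and does not show that a factor binds there. Variant forms of the letters were not searched, so a window without a match may still hold one.

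An arrangement along the chromosome was also more frequent among members, though most of them do not have it. For 33 of the 78 members (42.3%), a protein-coding gene on the opposite strand starts within 1000 bases, against 2383 of 22046 protein-coding genes of the table (10.8%). Those 22046 genes include genes that were not tested, and the share among tested genes was not counted. Several partners work in mitochondria too. The partners named here were picked for their function, and the others include Rab6a, Klc4, Gga3 and Hira. Mrps12 has its start 172 bases from that of Sars2, the mitochondrial seryl-tRNA synthetase, and Mrps27 lies 81 bases from Ptcd2, a mitochondrial RNA-binding protein gene. Mrpl36 overlaps the start of the complex I gene Ndufs6 and Mrpl47 that of the complex I gene Ndufb5. Mrps11 and Mrpl46, 1 of each subunit, face each other. Mrpl49 lies 137 bases from Fau, which encodes a cytosolic ribosomal protein. The libraries were not made with a step that marks the strand, so reads from overlapping partners cannot be told apart.

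Overlap of exons bears on a few members directly. In GENCODE M21, on the same build as the table, 45 of the 78 members have no exon base inside an exon of another gene. For 3 members more than 50% of the exon bases lie in exons of other genes. They are Mrpl53 (88.0%, with Gm42688), Mrps34 (77.8%, of which Mapk8ip3 alone accounts for 63.4% of its exon bases) and Mrps25 (69.8%, with Nr2c2). Gm42688 lies on the same strand as Mrpl53, so a strand mark would not tell their reads apart. Mapk8ip3 and Nr2c2 lie on the strand opposite to Mrps34 and Mrps25. Mrpl53 (chromosome 6, 83109040 to 83109939, mm10) was counted 0 times in all 7 libraries, where a count of 0 allows up to 3 counts, or 0.171 to 0.205 CPM. That bound covers reads assigned to Mrpl53 and is no limit on its expression, since the handling of reads shared by genes is not given. Mrpl53 was therefore not tested, and the remaining 77 members, 48 large and 29 small, passed the filter on low counts. Among them the lowest count in any library was 79 and the highest 1556. Processed pseudogenes of Mrpl48, Mrpl23 and Mrps36 are listed apart in the table, with at most 20 counts in a library, and how reads shared with them were counted is not given in the sources used here.

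To compare members with one another, levels were divided by gene length as deposited (all exons together, so a gene with long, little-used exons reads low). In the large subunit Mrpl49 (chromosome 19, 6053630 to 6057751) had the highest level, 42.6 ± 6.70 CPM per kilobase in Ang II and 46.6 ± 1.67 in saline (SD, n = 4 and n = 3, as for all levels here). Mrpl34, at 40.4 ± 3.78 and 47.2 ± 4.92 CPM per kilobase in the same order, could not be separated from it by these spreads. Mrpl41 followed with 31.1 ± 4.02 and 34.1 ± 3.41. Mrpl34 encodes a homologue of a bacterial protein, whereas Mrpl49 and Mrpl41 encode additions of the mitochondrial lineage.

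Among small subunit genes Mrps21, which encodes the homologue of bacterial bS21, stood alone at the top with 29.7 ± 2.93 CPM per kilobase in Ang II and 29.1 ± 8.89 in saline. Its lowest library, at 18.9, was above the highest library of the next gene, Mrps7, at 17.8. Mrps7, which encodes a protein of the small subunit head, had 14.5 ± 1.38 and 15.6 ± 2.31, and Mrps23 15.3 ± 0.275 and 14.3 ± 1.56, with overlapping spreads. At the low end of the large subunit was Mrpl33, with 1.56 ± 0.164 in Ang II and 1.55 ± 0.261 in saline. Mrpl15 followed with 2.31 ± 0.131 and 2.25 ± 0.255. Mrpl53, counted 0 times, cannot be ranked with them, given its exon overlap. At the low end of the small subunit were Mrps35 (2.26 ± 0.229 and 2.30 ± 0.332), Mrps25 (2.35 ± 0.513 and 2.47 ± 0.419) and Mrps30 (2.77 ± 0.255 and 2.68 ± 0.324), whose spreads overlap for the first pair. The 69.8% exon overlap of Mrps25 applies to its level and place here, since the handling of shared reads is not given. Genes of a single particle, Mrpl53 left aside, thus ran from 1.56 to 42.6 CPM per kilobase in Ang II. Gene length enters this range. Mrps21 has 739 bases and Mrps35 has 8631, while their means over all libraries were 21.8 and 19.6 CPM. The largest log2 fold change between the infusion groups in either direction was 0.35.

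**Figure D1:**
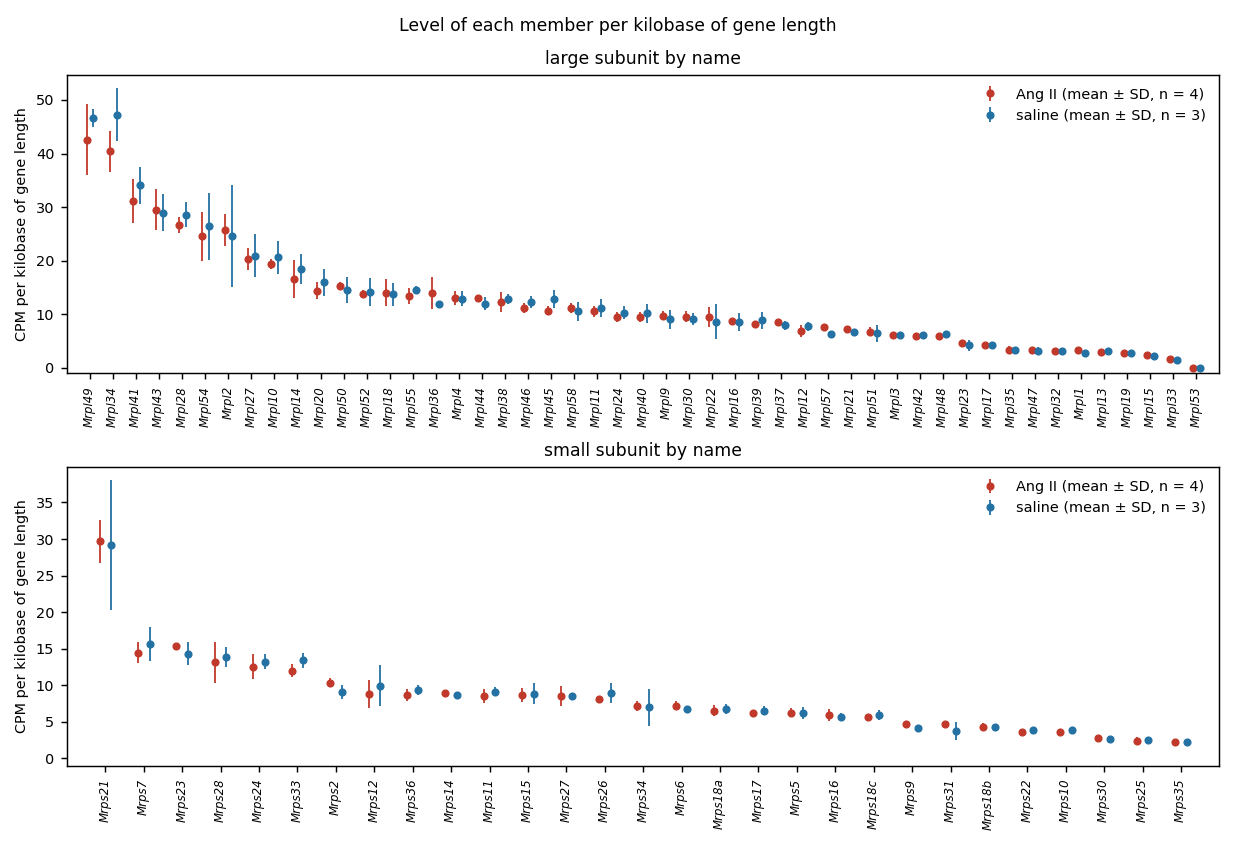
Level of each member in CPM per kilobase of gene length (y axis, linear), with large subunit genes above and small subunit genes below, ordered by level. Points are means and bars are SDs of 4 Ang II (red) and 3 saline (blue) libraries. Mrpl49 stands at 42.6 and 46.6 and Mrps21 at 29.7 and 29.1, Ang II first, and the group means of a gene lie close together along the whole order.

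Whether Ang II infusion moved these genes was asked with the quasi-likelihood test of edgeR on the counts of all 7 libraries, two-sided, with Benjamini-Hochberg adjustment over the 17078 genes tested and an adjusted p under 0.05 as the threshold. No member passed. The count was 0 of 48 in the large subunit and 0 of 29 in the small subunit, as it was over all genes tested (0 of 17078, 0%). DESeq2 called 35 genes of the whole table (0.205%), limma-voom 0, and edgeR with no filter on low counts 98 (0.32%), with 0 members in any of them. At an unadjusted p under 0.05 edgeR had 1 member, Mrpl45, against 789 genes of the table (4.62%). In no member were the Ang II and saline libraries fully apart in CPM, while this held for 1010 of 17078 genes (5.91%, with 3.18% higher and 2.73% lower in Ang II), and for 466 of the 8463 genes within the members' range of CPM (5.51%). In bulk tissue a smaller number of cells of a type and less RNA per cell cannot be told apart, which holds for every level here.

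The intervals bound the size of the differences. In 77 of 77 members tested the 95% interval of the log2 fold change, Ang II over saline, lay within 1 on either side of 0. In 67 of them, 40 large and 27 small, it lay within 0.5. It held 0 in 76. Over all 17078 genes tested, the interval lay within 1 in 13578, lay within 0.5 in 9372 and held 0 in 16289. Of these genes 8463 lie within the members' range of CPM, and the intervals were not counted for those alone. Fold changes were as often above as below 0 in the large subunit, 24 higher and 24 lower, with a median of -0.0036, an interquartile range from -0.11 to 0.07 and a range from -0.27 to 0.25. In the small subunit 12 were higher and 17 lower, with a median of -0.03, an interquartile range from -0.09 to 0.04 and a range from -0.18 to 0.35. All genes tested had a median of -0.0048, and 48.9% of them were above 0.

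**Figure D2:**
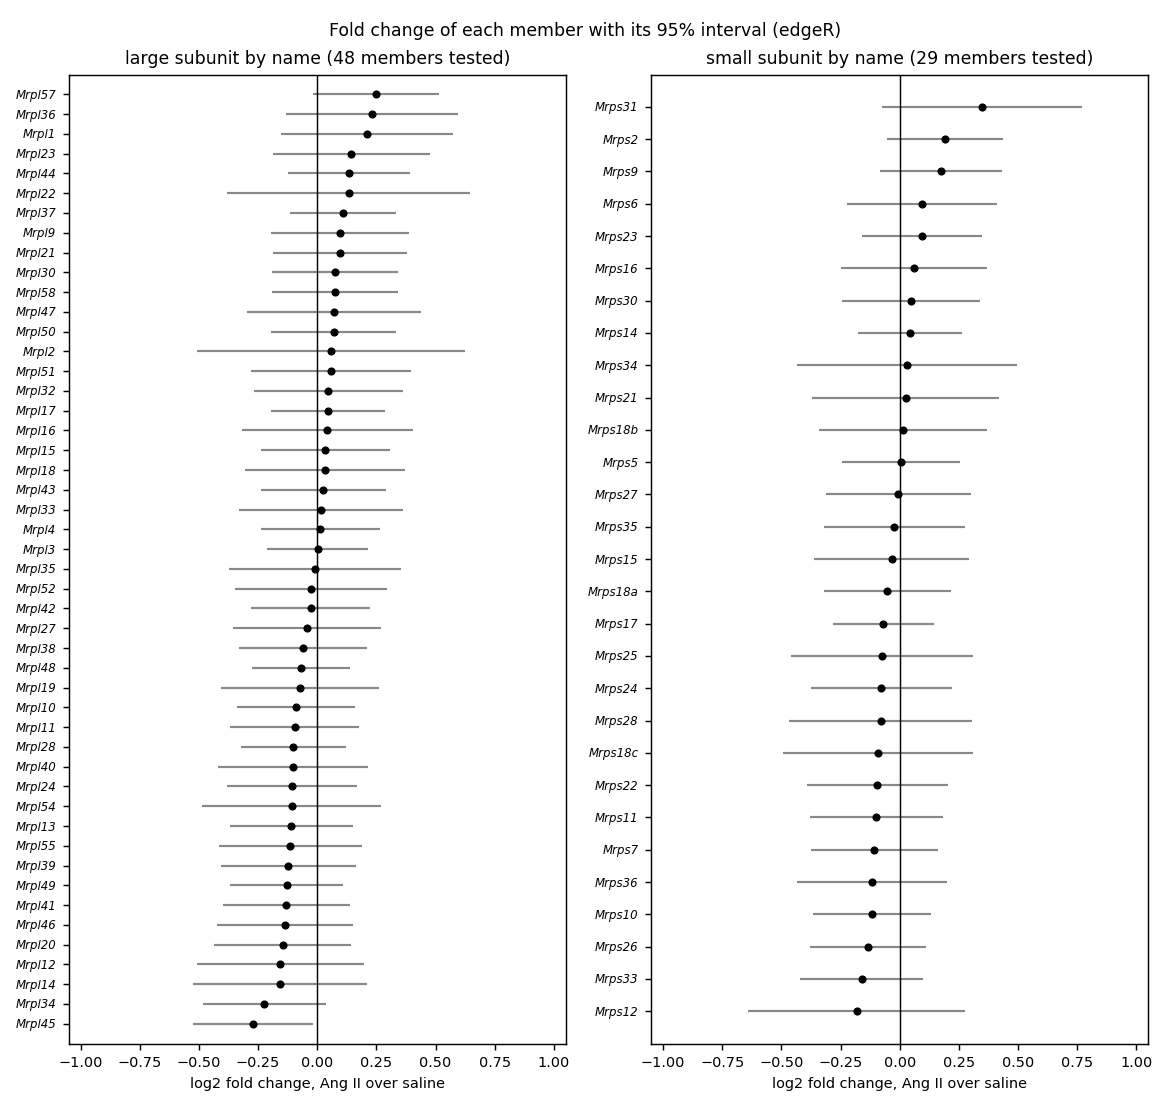
Log2 fold change, Ang II over saline, of each tested member (x axis, points) with its 95% interval from edgeR (lines), 48 large subunit genes at left and 29 small subunit genes at right, ordered by value. The points run from -0.27 (Mrpl45) to 0.35 (Mrps31), and 76 of 77 lines cross 0.

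The large subunit member of smallest p was Mrpl45 (ENSMUSG00000018882, chromosome 11, 97315716 to 97329920, mm10), whose protein sits at the exit of the peptide tunnel and anchors the ribosome to the inner membrane. It had 30.3, 27.5, 25.04 and 27.5 CPM in Ang II replicates 1 to 4, against 29.3, 33.0 and 37.6 CPM in saline replicates 1 to 3. The groups overlapped, since Ang II replicate 1 lay above saline replicate 1. The log2 fold change was -0.27 with a standard error (SE) of 0.12, an unadjusted p of 0.0376 and an adjusted p of 0.982 by edgeR, rank 572 of the 17078 genes. The log2 fold change ran from -0.35 without saline replicate 1 to -0.17 without saline replicate 3.

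Mrpl57 (ENSMUSG00000021967, chromosome 14), a member added in the mitochondrial lineage, went the other way. It had 22.7, 19.6, 23.1 and 23.7 CPM in Ang II and 19.0, 17.5 and 19.7 CPM in saline, where Ang II replicate 2 fell just below saline replicate 3. Its log2 fold change was 0.25 ± 0.12 (SE; adjusted p = 0.982, edgeR). Mrpl34, the homologue of bacterial bL34, had 21.7, 23.8, 25.4 and 27.1 CPM in Ang II and 29.4, 31.2 and 25.4 CPM in saline, with saline replicate 3 inside the Ang II range and a log2 fold change of -0.23 ± 0.12. Mrpl36, the homologue of bacterial bL36, is an example of uneven spread. It had 19.3, 11.5, 16.0 and 18.1 CPM in Ang II, on both sides of the 13.8, 13.8 and 13.9 CPM in saline, and a log2 fold change of 0.23 ± 0.17. Mrpl1, of the L1 stalk where spent tRNA leaves, had 17.5, 14.2, 10.9 and 14 CPM in Ang II and 12.1, 10.8 and 13.8 CPM in saline, with a log2 fold change of 0.21 ± 0.17. In Mrpl1 as well, the lowest Ang II library lay among the saline libraries. Without Ang II replicate 1 the log2 fold change was 0.09 in Mrpl1 and 0.14 in Mrpl36, and it was 0.32 in Mrpl1 without Ang II replicate 3 and 0.37 in Mrpl36 without Ang II replicate 2.

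In the small subunit Mrps31 (ENSMUSG00000031533, chromosome 8, 22411361 to 22429665, mm10), a mitochondrial addition in the head, had the smallest p and the largest fold change of all members. It had 15.5, 13.7, 17.3 and 15.5 CPM in Ang II and 12.8, 7.85 and 15.9 CPM in saline. Saline replicate 2 was low and saline replicate 3 lay among the Ang II libraries. The log2 fold change was 0.35 ± 0.20 (SE; unadjusted p = 0.100, adjusted p = 0.982, edgeR), and it was 0.11 without saline replicate 2 and 0.59 without saline replicate 3.

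Mrps2, homologous to bacterial uS2, had 31.0, 29.2, 28.5 and 32.3 CPM in Ang II and 25.02, 24.5 and 29.8 CPM in saline (log2 fold change 0.19 ± 0.11). Mrps9, homologous to uS9 in the head, had 26.9, 29.3, 28.1 and 23.4 CPM in Ang II and 22.0, 23.8 and 25.8 CPM in saline (0.17 ± 0.12). In both genes most Ang II libraries were above most saline libraries, but the groups overlapped. Mrps33, another addition of the head, had 20.3, 21.0, 20.9 and 17.98 CPM in Ang II and 21.9, 20.9 and 24.3 CPM in saline (-0.16 ± 0.12). Mrps26 had 35.1, 36.2, 37.8 and 33.4 CPM in Ang II and 37.2, 34.1 and 45.8 CPM in saline (-0.13 ± 0.11). In Mrps26 saline replicate 3 was highest, and the log2 fold change was 0.0035 without it.

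**Figure D3:**
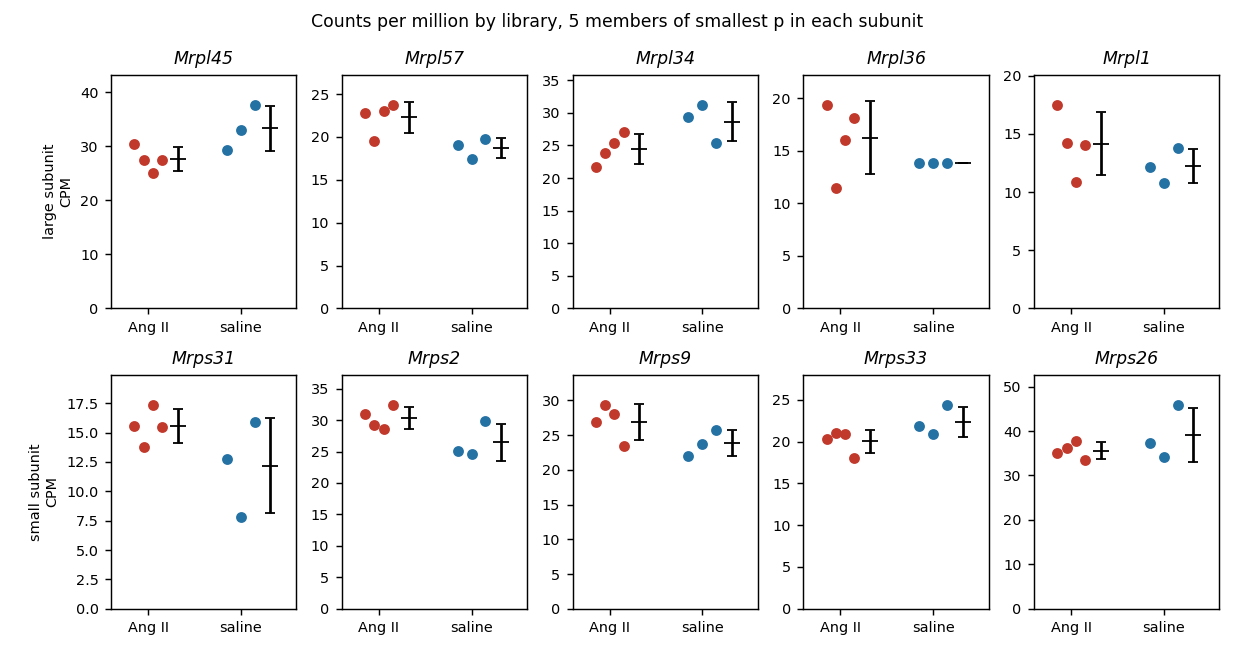
CPM of the 5 members of smallest p in each subunit (y axis, linear from 0), large subunit above and small below, 1 point per library with Ang II in red at left and saline in blue at right. Bars show mean and SD (n = 4 and n = 3). In each of the 10 panels the groups overlap, and saline replicate 2 of Mrps31 lies lowest at 7.85 CPM.

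Members known for a specific role gave similar pictures. Mrpl12, of the stalk that recruits translation factors and also a binding partner of the mitochondrial RNA polymerase, had a log2 fold change of -0.16 ± 0.17 (SE). Its neighbours at the stalk base, Mrpl11 and Mrpl10, had -0.10 ± 0.13 and -0.09 ± 0.12. Without saline replicate 3 these values were -0.05 in Mrpl12, 0.0019 in Mrpl11 and -0.02 in Mrpl10, and without saline replicate 2 they were -0.21 in both Mrpl11 and Mrpl10. Mrpl58, a peptidyl-tRNA hydrolase built into the large subunit that frees stalled chains, had 0.08 ± 0.13, and Mrpl44, a gene of human mitochondrial cardiomyopathy, 0.13 ± 0.12. None of these had groups that were apart.

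Mrps12, whose protein lies at the decoding centre, had 9.98, 7.03, 8.16 and 11.4 CPM in Ang II and 9.72, 7.78 and 13.6 CPM in saline, with a log2 fold change of -0.18 ± 0.21. Its head-to-head partner Sars2 had -0.17 ± 0.13. Other pairs differed in sign, as did Mrpl40 (-0.10) and its partner Hira (0.12), and whether partners move together was not tested. Mrps34, in which human variants cause Leigh syndrome, had 16.7, 13.8, 13.4 and 15.2 CPM in Ang II and 17.96, 8.41 and 16.9 CPM in saline, where replicate 2 was lowest and the other saline libraries highest (0.03 ± 0.22). The 77.8% exon overlap of Mrps34 applies to these values. The paralogs Mrps18a, Mrps18b and Mrps18c, which descend from a single bacterial S18 and of which the first is built into the large subunit, had -0.05 ± 0.13, 0.01 ± 0.17 and -0.09 ± 0.19. Mrps30 also sits in the large subunit despite its name, and had 0.05 ± 0.14. Mrps36, now placed in the oxoglutarate dehydrogenase complex of the citric acid cycle rather than in the ribosome, had -0.12 ± 0.15.

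Grouping by origin or by place in the particle brought out no subset in which a member was called. Large subunit genes of bacterial descent were higher in 17 of 29 (median 0.02) and those added in mitochondria in 7 of 19 (median -0.06). The small subunit had 8 of 18 (median -0.04) and 4 of 11 (median -0.02) higher. By place, 1 of 4 genes of the stalks, 6 of 9 of the exit tunnel, 2 of 6 of the central protuberance, 3 of 4 of the peptidyl transferase centre, 8 of 18 of the small subunit body and platform and 3 of 8 of its head were higher. These counts describe fold changes whose intervals hold 0 in all but Mrpl45.

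Summed over a subunit, the counts are large and the counting error small. Large subunit members together had 1229, 1115, 1182 and 1178 CPM in Ang II and 1206, 1078 and 1297 CPM in saline. Small subunit members together had 596.2, 570.8, 609.7 and 596.9 CPM in Ang II and 598.6, 559.5 and 638.9 CPM in saline. In both subunits all 4 Ang II libraries lay between saline replicate 2, the lowest, and saline replicate 3, the highest. As shares of all counts, large subunit members took 0.111% to 0.123% in Ang II and 0.105% to 0.130% in saline, and small subunit members 0.0570% to 0.0627% in Ang II and 0.0545% to 0.0639% in saline. The 95% Wilson intervals of single shares reached at most 0.00174 and 0.00125 percentage points to either side, and cover counting error only. The large to small ratio was 1.98 ± 0.0551 in Ang II (SD, n = 4) and 1.99 ± 0.0557 in saline (SD, n = 3), a difference smaller than the spread between replicates.

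The group means of the sums, 1176 and 1194 CPM for large and 593.4 and 599.0 CPM for small subunit members, Ang II first, thus lay closer together than the saline libraries did. Saline replicate 2 also had the fewest genes with at least 1 count, 21260, against 24024 to 24846 in the Ang II libraries and 24183 and 24039 in saline replicates 1 and 3, and the lowest total count, and the part of this in its values was not tested. It held the lowest value of 24 of 48 large subunit members and of 8 of 29 small subunit members, against 2028 of the 8463 genes in the same CPM range (24.0%). Saline replicate 3 held the highest value of 23 of 48 large and 6 of 29 small subunit members, against 1523 of those 8463 genes. It also had 985.2 CPM of the pigment epithelium and melanocyte markers, against 195.8 and 230 CPM in saline replicates 1 and 2. The part of these markers' tissue in its values was not tested. Relative to each gene's own mean over 7 libraries, the median large subunit member stood at -0.18 on the log2 scale in saline replicate 2 and at 0.14 in saline replicate 3. The small subunit medians were -0.03 and 0.13. Leaving a saline library out moved the direction of the list. Without saline replicate 2, 11 of 48 large and 11 of 29 small subunit members were higher in Ang II (median -0.09 each), with 49.5% of all genes above 0. Without saline replicate 3 the counts were 32 of 48 and 18 of 29 (medians 0.05 and 0.04), with 51.4% of all genes above 0. Groups were apart in 7 large and 3 small subunit members without saline replicate 2, against 14.7% of all genes tested, and in 6 and 3 without saline replicate 3, against 17.1%. With library size as the sole scaling, they were apart in 1 small subunit member, against 6.29% of genes. No member was called in any of these settings, though 117 genes of the table were (0.667%) without saline replicate 3.

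**Figure D4:**
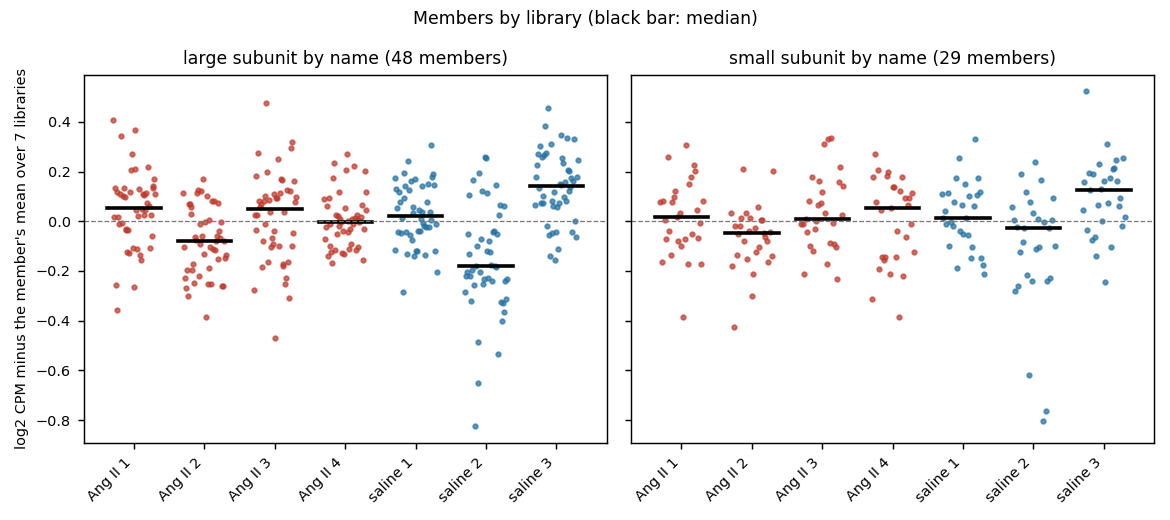
Log2 CPM of each member minus its own mean over the 7 libraries (y axis), 1 point per member, by library (x axis, Ang II red, saline blue), with 48 large subunit genes at left and 29 small subunit genes at right. Black bars are medians. The large subunit medians of saline replicates 2 and 3, -0.18 and 0.14, bracket those of the Ang II libraries.

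Members varied among themselves in how steady they were. The SD of log2 CPM over the 7 libraries had a median of 0.164 over members (interquartile range 0.137 to 0.192), and of 0.169 over the 8463 genes of the same CPM range (0.125 to 0.233). Mrps14 was the steadiest, with 28.9, 28.4, 29.0 and 30.3 CPM in Ang II and 28.5, 28.3 and 28.1 CPM in saline. Mrpl2, homologous to bacterial uL2 at the peptidyl transferase centre, was the most variable (SD 0.40), with 30.7, 25.4, 30.3 and 33.7 CPM in Ang II and 32.8, 16.2 and 37.4 CPM in saline. Its low value was again saline replicate 2. Mrps21, the small subunit gene of highest level, had 13.9 CPM in that library and between 19.3 and 25.5 CPM in the other 6. The Ang II libraries did not contain a comparable low value in either gene.

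The wider machinery of mitochondrial translation was taken from lists. Of 5 ribosome proteins outside the naming rule, 2 were higher and 3 lower (median -0.04). Ptcd3, which encodes a pentatricopeptide protein of the small subunit, had 51.2, 50.2, 46.6 and 46.2 CPM in Ang II and 41.1, 42.3 and 43.1 CPM in saline. Its groups were apart, as in 5.91% of all genes tested, with a log2 fold change of 0.20 ± 0.09 (SE). Its adjusted p was 0.982 by edgeR. Dap3, a GTP-binding protein of the small subunit head, had -0.14 ± 0.09. Of 12 translation factors tested 8 were higher (median 0.04), among them Guf1, the mitochondrial homologue of LepA (0.20 ± 0.12), and Taco1, an activator of Cox1 translation (0.24 ± 0.18). Of 27 assembly factors 15 were higher (median 0.02). Dhx30, an RNA helicase of mitoribosome assembly, had -0.21 ± 0.09, and Malsu1, which keeps the subunits apart during assembly, 0.30 ± 0.14, each with groups apart. In all, 1 of the 27 was apart and higher and 2 were apart and lower. Over all genes tested, 3.18% were apart and higher and 2.73% apart and lower. Of 20 mitochondrial aminoacyl-tRNA synthetases 10 were higher (median -0.01), and Sars2 and Aars2 led them by p with -0.17 ± 0.13 and -0.14 ± 0.12. Of 15 genes of mitochondrial DNA expression tested 9 were higher (median 0.05), with Ppargc1b, a transcriptional coactivator of mitochondrial biogenesis, at -0.24 ± 0.13 and Gabpa, the DNA-binding GABP subunit whose core was searched above, at 0.19 ± 0.11. Among the translation factors, the synthetases and the genes of mitochondrial DNA expression, 0 had groups apart. No gene of these 5 lists was called.

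The mRNAs this ribosome translates went both ways. Of 12 mitochondrially encoded mRNAs tested, 6 were higher and 6 lower, with log2 fold changes from -0.31 to 0.54, and 0 were called. The smallest p values were those of mt-Atp6, with 29.3, 62.4, 43.2 and 47.7 CPM in Ang II and 24.3, 34.8 and 35.1 CPM in saline (0.54 ± 0.25), and of mt-Co3 (-0.31 ± 0.18). Both overlapped between the groups. The mt-Atp6 values lie far below the median of this list, 1304 CPM as a mean over libraries. How reads shared by genes were counted is not given, and its part in these values was not tested. Cytosolic ribosomal protein genes, which make the ribosome of the cytoplasm, were higher in 26 and lower in 51 of 77 tested (median -0.04), and nuclear-encoded respiratory chain genes higher in 28 and lower in 54 of 82 (median -0.05). The members' own split, 36 higher and 41 lower (median -0.02), was nearer to even, and a difference between these lists was not tested.

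**Figure D5:**
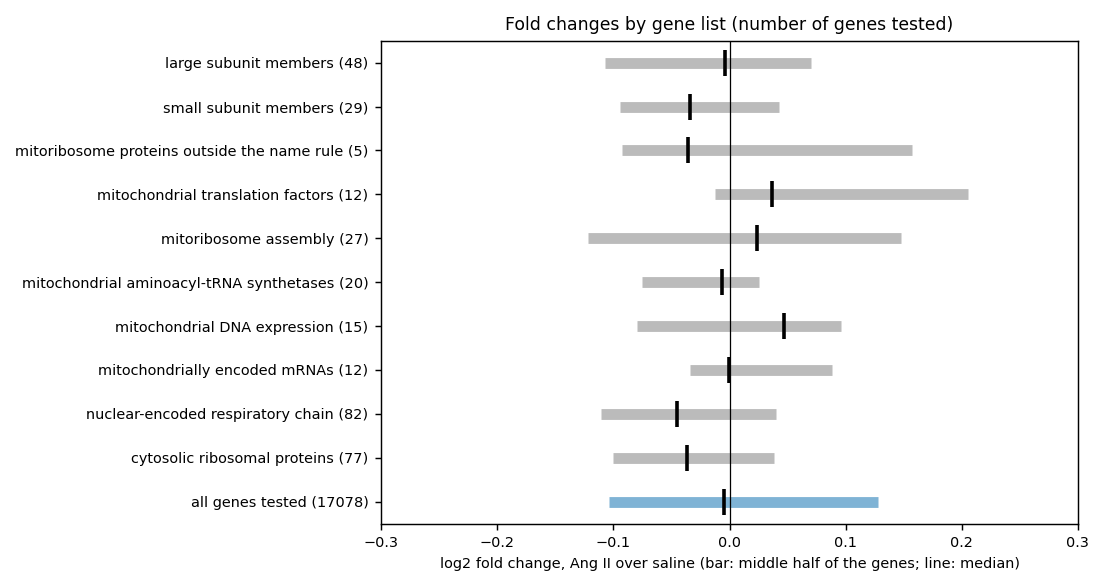
Log2 fold change, Ang II over saline (x axis), for each list of genes (y axis, number tested in brackets). Grey bars span the interquartile range of a list, black lines mark medians and the blue bar shows all 17078 genes tested. The medians run from -0.05 to 0.05, with large and small subunit members at -0.0036 and -0.03.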

How the data were processed

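The deposited table held whole-number counts per gene, not normalized by the authors, with gene length, biotype and coordinates beside them. CASAVA, HISAT2 2.0.5 and featureCounts 1.5.0-p3 with build mm10 are named in the submitters' processing notes. Libraries were poly-A selected, with no strand-marking step per the labels' protocols. Annotation release, strand setting and handling of reads shared by genes are not given in the sources used here. Columns were matched by sample description. Counts were tested with edgeR 4.0.16 in R 4.3.3 (filterByExpr by group, TMM, robust quasi-likelihood fit, group as sole term). SE was back-calculated by dividing the size of the log2 fold change by the root of F. Levels per kilobase used the deposited length. DESeq2 1.42.0, limma 3.58.1 (voom), other scalings, no filter, a replicate block and leaving out each library gave 13 alternatives. Total counts of 14655431 to 17563493 per library set the precision. Gene positions are 1-based. GENCODE M21 gave exon overlaps and RefSeq the promoters. The NRF1 letters searched were shortened after a longer form had been counted, and the share where they overlap on both strands is that longer form. Members, 5 lists of mitochondrial gene expression, 3 comparison sets and 8 marker lists were chosen with earlier results of these data known. Named genes are the 5 of smallest p and the 3 highest and 3 lowest per subunit, members of set roles, and 2 of smallest p per list. Others (Mrps14, Mrpl2, the genes with promoters shown and the partners) were chosen after their values were seen. Markers of blood (8.91 to 150.1 CPM in Ang II, 46.9 to 78.5 in saline), microglia (38.6 to 46.0, 29.1 to 37.0), endothelium (55.4 to 69.5, 53.3 to 55.1) and reactive glia (31.3 to 202.8, 25.3 to 41.7) were summed too, and 0 genes of any marker list were called. Some genes that the naming rule takes are not reported here.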

Additional observations from a re-analysis of the deposited data

Results flagged for a closer look

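In 6 of 77 members tested, a single Ang II library stood apart from the other 3 by more than Dixon's 95% limit for 4 samples, which sets the gap against the range of the group. Chance passes this limit in about 1 of 20 groups. Mrpl22, of the exit tunnel, had 12.1 CPM in Ang II replicate 3, against 8.25 to 8.51 CPM in the others, and 5.54 to 11.9 CPM in saline. Mrpl40 had 19.3 CPM and Mrps6 12.5 CPM in that same library. In Mrpl32 the library was Ang II replicate 1, at 18.7 CPM, and in Mrps35 it was the same library, at 22.5 CPM. Mrpl9 was low, at 23.1 CPM, in Ang II replicate 2. These are 3 different libraries, and muscle and reactive glia markers were highest in Ang II replicate 3, at 219.8 and 202.8 CPM. Their part in these values was not tested.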

How the results depend on the processing

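No member was called under any of the 13 alternatives, and the smallest adjusted p of a named member was 0.378 (Mrps31, edgeR without saline replicate 3). The count of all genes called was 0 with edgeR, 98 with no filter on low counts, 35 with DESeq2 and 56 with the replicate block, and 0 to 117 when a library was left out; the cause was not tested. Replicate numbers do not pair the libraries by any label, and the 3 same-numbered pairs had correlations of -0.069 to 0.046 in their deviations. Groups that did not overlap numbered 0 in both subunits, 1 small subunit member with library size alone, and 0 to 7 large and 1 to 3 small with a library left out, where 8.26% to 17.1% of all genes were apart and fewer samples have to separate. The small subunit median ran from -0.0885 to 0.0351 and the large subunit median from -0.0902 to 0.0531 with a library left out, the lowest without saline replicate 2 and the highest without saline replicate 3. Library size alone moved the median of all genes to 0.0420. Of 403 values for 31 named members, 377 kept direction and 26 reversed, and 17 members never reversed. With a library left out, log2 fold changes that changed sign ran from -0.21 to 0.0019 in Mrpl11, -0.0575 to 0.0888 in Mrpl15, -0.0506 to 0.160 in Mrpl33, -0.0468 to 0.20 in Mrpl58, -0.35 to 0.0692 in Mrps12, -0.12 to 0.0399 in Mrps18a, -0.0585 to 0.0682 in Mrps18b, -0.21 to 0.17 in Mrps21, -0.20 to 0.0325 in Mrps25, -0.22 to 0.0035 in Mrps26, -0.0082 to 0.15 in Mrps30, -0.24 to 0.22 in Mrps34, -0.14 to 0.0625 in Mrps35 and -0.21 to 0.0051 in Mrps7. Mrps35 was also 0.0230 with library size alone and 0.0021 with the replicate block. In 28 of 31 named members, leaving out a library moved the value by over 1.5 times, in 14 without a change of sign. Of these 14, those whose full range the report does not give are Mrpl12 (-0.24 to -0.05), Mrpl41 (-0.20 to -0.04), Mrpl44 (0.08 to 0.23), Mrpl49 (-0.23 to -0.05), Mrps18c (-0.18 to -0.03), Mrps2 (0.14 to 0.30), Mrps23 (0.0079 to 0.16), Mrps33 (-0.21 to -0.09) and Mrps36 (-0.16 to -0.05). With 4 and 3 libraries, changes smaller than the intervals given cannot be seen.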

Other observations

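Neighbouring gene groups held genes whose libraries were fully apart, which the mitochondrial ribosomal protein genes did not. Among nuclear-encoded respiratory chain genes, 9 of 82 had all Ang II libraries below all saline libraries and 0 above, and among cytosolic ribosomal protein genes 6 of 77 were below and 0 above, against 2.73% of all genes below and 3.18% above. Ndufa7, of complex I, had 50.5, 45.9, 50.4 and 47.9 CPM in Ang II and 54.8, 57.5 and 56.4 CPM in saline. Ndufa10, also of complex I, had a log2 fold change of -0.18 ± 0.08 (SE). Rpsa, of the small cytosolic subunit, had a log2 fold change of -0.25 ± 0.08. None of these genes was called (adjusted p = 0.982 for each, edgeR). Genes of one list share libraries, so their counts are not independent of each other.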
